A study of Drosophila melanogaster with 34 samples.

Results

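The blood element is an LTR retrotransposon of Drosophila melanogaster, and its row, BLOOD, is 1 of the 129 transposon consensus sequences in the deposited tables. It was chosen by its measured loss of H3K9me3 and HP1a over input after knockdown of histone H1, so those values are a description and support nothing here. All measurements come from ovarian somatic cells (OSC), a cultured line of follicle-type cells from the fly ovary that carries a nuclear piRNA pathway, grown at 26 degrees and transfected with siRNA. Every control was the same line given siRNA against EGFP, and no allele or transgene is named in the labels. The knockdowns targeted Piwi (Piwi-KD), the linker histone H1 (H1-KD), the heterochromatin protein HP1a (HP1a-KD) or Maelstrom (Mael-KD). The 11 tables hold 29 columns: 3 of poly(A)+ RNA, 2 of small RNA bound to Piwi, 5 of ATAC, 7 of ChIP input, 6 of H1 ChIP, 3 of H3K9me3 ChIP and 3 of HP1a ChIP. RNA was measured in control, Piwi-KD and H1-KD, small RNA in control and H1-KD, and ATAC in the control and all 4 knockdowns. H1 ChIP covered Piwi-KD (sample 1), Mael-KD (sample 2) and HP1a-KD (sample 3), each with a control of its own number, while H3K9me3 and HP1a ChIP covered control, Piwi-KD and H1-KD of sample 1.

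LTR retrotransposons copy themselves through an RNA intermediate that is made from their own long terminal repeats, and blood encodes the Gag and Pol proteins of this cycle. It is named for an insertion that caused an eye-colour allele of the white gene. Blood belongs to the mdg1 group, with mdg1, Tabor, the Stalker elements and the element listed as DM412 as relatives. In follicle-type cells, piRNAs guide the nuclear protein Piwi to nascent transposon transcripts, and silencing there involves Maelstrom, methylation of histone H3 at lysine 9 (H3K9me3), its reader HP1a and the linker histone H1. The reference name table lists 29 blood insertions in the fly genome, and a consensus stands for all copies of the cell line together, so it has no single chromosome position.

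Whole reads could be recovered from the deposited values, and they gave a consensus length of 7012 bp for BLOOD. Read totals ran from 1560307 in the shallowest input to 25544579 in H1-KD RNA, and BLOOD itself had between 3099 reads (input of Mael-KD) and 137619 reads (H1-KD RNA). Counting error was small throughout, and intervals below are at 95% and cover that error only. Each knockdown had 1 column per assay, so only the 3 controls of H1 ChIP and of input show any spread between samples, and the labels do not say whether these were separate cultures. The tables hold transposons alone, so neither the knockdown of the target genes nor the cell type was checked by its own RNA. A change is a log2 difference between knockdown and control after a small pseudocount. It is read beside the 96 transposons left in each table once the lowest 25% were left out.

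BLOOD RNA was abundant before any knockdown. At 571.7 RPKM in the control it ranked 3 of 129 transposons, behind COPIA at 23623 and Gypsy1 at 2827 and ahead of DIVER at 233.8. It made up 0.401% of all RNA reads and 2.69% of the reads on transposons. Relative to its DNA in the input of sample 1, the RNA ratio was 2.25, rank 4 of 96 transposons, against a median of 0.0453. The control cells also held much Piwi-bound small RNA matching blood: 8998 RPM, or 1283 RPM per kilobase, which ranked 17 of the 128 transposons with a known length. High RNA and a large piRNA supply were thus measured for the same element.

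In control chromatin, BLOOD was close to the typical transposon in H3K9me3 and HP1a and low in H1. H3K9me3 over input was 2.84 (interval 2.76 to 2.92), rank 47 of 96, against a median transposon of 2.73. HP1a over input was 1.72 (1.67 to 1.78), rank 57, against 1.81. H1 over input was 0.987, 0.956 and 1.01 in the 3 controls, ranks 82, 87 and 83, against medians of 1.30, 1.15 and 1.18. The 3 controls placed BLOOD below the median transposon each time and differed among themselves by at most 1.05-fold. ATAC over input was 1.41 in the control, rank 35, against a median of 1.03.

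The DNA content of the element differed between a knockdown and its control by less than the controls differed among themselves. Input RPKM was 254.2, 260.5 and 260.2 for control, Piwi-KD and H1-KD of sample 1. It was 280.7 and 283.2 for control and Mael-KD of sample 2, and 289.5 and 302.1 for control and HP1a-KD of sample 3. Within a sample number the knockdown exceeded its control by 1.01-fold to 1.04-fold, whereas the 3 controls alone spanned 1.14-fold (275 ± 18.4 RPKM, SD, n = 3). The interval of the ratio held 1 in Piwi-KD, H1-KD and Mael-KD and was 1.01 to 1.08 in HP1a-KD. At least 1.5-fold differences in input were found for 1.04% of transposons in each comparison, BLOOD not among them.

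**Figure D1:**
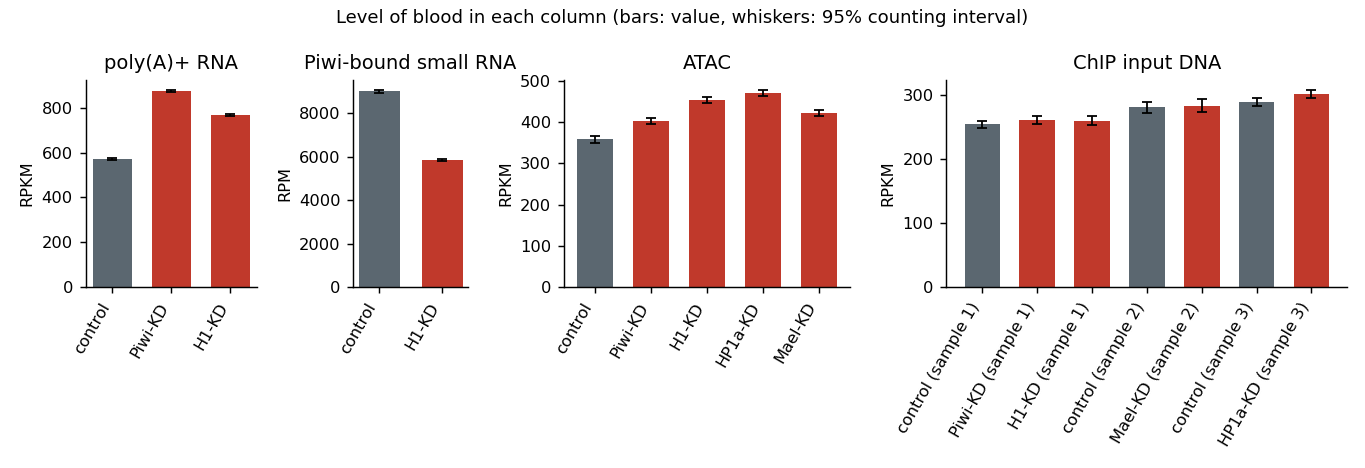
Level of BLOOD in each column of RNA (RPKM), Piwi-bound small RNA (RPM), ATAC (RPKM) and ChIP input (RPKM); grey bars are controls, red bars are knockdowns, and whiskers are 95% counting intervals. RNA and ATAC are lowest in the control, small RNA is lower in H1-KD (5844 against 8998 RPM), and input follows the sample number.

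The RNA comparison asks how far blood is held down by Piwi and by H1. BLOOD stood at 571.7 RPKM in the control, 768 in H1-KD and 875 in Piwi-KD. The order control, H1-KD, Piwi-KD exceeded counting error at both steps. Piwi-KD was 1.53-fold above control (interval 1.52 to 1.54, log2 change 0.61), rank 32 from the highest of 96 transposons, and the median transposon changed by 0.11. This was short of the 2-fold mark that 24% of transposons reached.

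In H1-KD the RNA ratio to control was 1.34 (1.33 to 1.36, log2 change 0.43). There 58.3% of transposons were at least 2-fold higher, and the median transposon was at 1.19. After centring on that median, 24 of the 96 were at least 2-fold higher and 11 lower, in place of 56 and 0. Relative to that median BLOOD stood at -0.77, and it ranked 76 from the highest. So BLOOD was above control as deposited and below the typical transposon after centring. Set directly against each other, H1-KD minus Piwi-KD was -0.19 (interval -0.20 to -0.18) for BLOOD, where the median transposon was at 0.73.

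On the RPKM scale the gain of BLOOD was large beside that of most transposons. BLOOD gained 303.2 RPKM in Piwi-KD, rank 7 of 129 transposons by gain. MDG1, the element that gives the group its name, gained 1131. In H1-KD the gain of BLOOD was 196.6 RPKM, rank 5. BLOOD's share of all transposon reads nevertheless was smaller in both knockdowns, at 2.37% in Piwi-KD and 2.003% in H1-KD against 2.69% in the control.

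The RNA of its relatives differed by larger folds. Of the 7 other mdg1-group entries, 6 were kept in the RNA table, and all 6 were at least 2-fold higher in Piwi-KD, also relative to the median transposon, with a median log2 change of 4.31 against 0.11 over all kept transposons. DM412 went from 8.67 RPKM in the control to 749.3 in Piwi-KD, TABOR from 17.8 to 522.8, and STALKER4 from 5.78 to 68.5. The smallest change was that of STALKER2, from 76.0 to 287.6 (1.91), and each of the 6 exceeded the 0.61 of BLOOD. DM412B passed the filter only through its knockdown value (0.789 RPKM in the control, from 11 reads), so the count is a description. STALKER3, a 372 bp entry, was listed at 0 in the control and in Piwi-KD and was left out; H1-KD had 20 reads of it.

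In H1-KD, 5 of the same 6 were at least 2-fold higher (median 2.34), and 3 of them were so relative to the median transposon. Over all 96 kept transposons the counts were 56 as deposited and 24 relative to the median, and DM412B is again among the 6 through its Piwi-KD value. MDG1 was the highest at 1742 RPKM against 33.8, and DM412B (0.80) was above control but below the median transposon. All 6 exceeded BLOOD here too. The relatives started low: their control RNA ran from 0.789 RPKM (DM412B) to 76.0 RPKM (STALKER2).

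**Figure D2:**
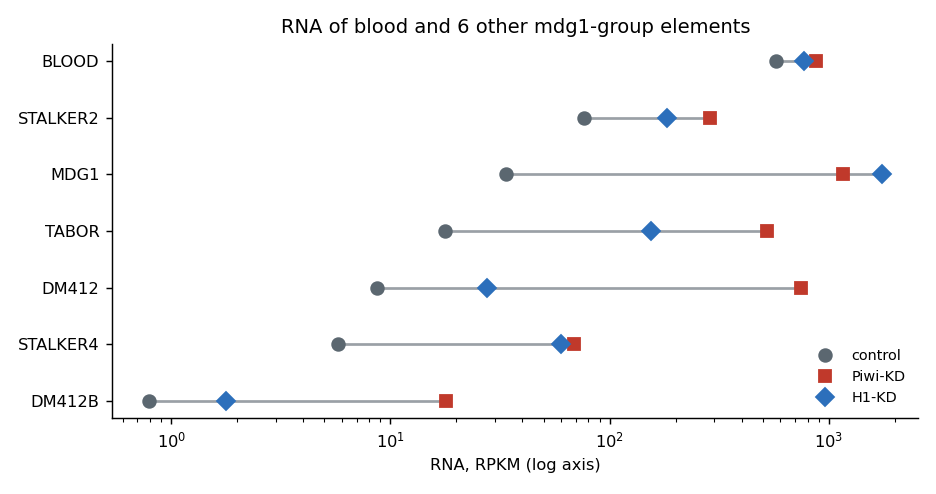
RNA level (RPKM, log axis) of BLOOD and the 6 other kept mdg1-group entries in control (circles), Piwi-KD (squares) and H1-KD (diamonds), ordered by control level; STALKER3 is not drawn because it is listed at 0 in the control. BLOOD starts at 571.7 RPKM and moves least, while MDG1 goes from 33.8 to 1164 in Piwi-KD and 1742 in H1-KD.

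Small RNA bound to Piwi was compared between control and H1-KD, to ask whether the piRNA supply depends on H1. BLOOD small RNA was 8998 RPM in the control (66564 reads) and 5844 RPM in H1-KD (40759 reads), 0.649 of the control (interval 0.642 to 0.658). The log2 change of -0.62 ranked 7 from the lowest of 96. No transposon was 2-fold lower (0%), and 33.3% were at least 2-fold higher. After centring, 23 were higher and 3 lower, in place of 32 and 0. As deposited the median transposon was at 0.27, so BLOOD stood at -0.89 relative to it, short of 2-fold. Transposons together took 35.1% of small RNA reads in the control and 33.5% in H1-KD.

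Most of the entries with the largest supply in the control also had lower small RNA in H1-KD. Of the 20 transposons with the highest control RPM, 17 were lower in H1-KD (median -0.43), and 1 was further down than BLOOD. Over all kept transposons 39 of 96 were lower (40.6%). The list was read from the same control library, a choice that itself favours a fall, so its count is a description only. The 7 other mdg1-group entries had a median of -0.57: TABOR was lowest at -0.77, MDG1 was at -0.58 and STALKER2 at -0.57. As deposited, DM412 (-0.02) and STALKER4 (0.02) were near 0. None of the 7 was above the median transposon (0.27). Relative to it 2 were at least 2-fold lower, beside 3 of all 96 kept transposons.

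Chromatin accessibility was measured by ATAC, in which a transposase cuts open DNA. BLOOD was at 357.9 RPKM in the control, 402.6 in Piwi-KD, 421.7 in Mael-KD, 453.9 in H1-KD and 471.3 in HP1a-KD. Each step in this order exceeded counting error, from 1.04-fold (interval 1.02 to 1.06) between H1-KD and HP1a-KD to 1.12-fold (1.10 to 1.15) between control and Piwi-KD. None reached 1.5-fold over control: the log2 changes were 0.17, 0.23, 0.34 and 0.39 in the order given. The 4 comparisons share 1 control column, and its error enters all of them. Between-sample spread of ATAC is not known here, and the value of BLOOD in 3 control inputs spanned 1.14-fold.

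At least 1.5-fold higher ATAC was found for 11.5% of transposons in Piwi-KD, 8.33% in Mael-KD, 12.5% in H1-KD and 31.2% in HP1a-KD. Lower by as much were 2.08%, 2.08%, 1.04% and 0%. Once centred, Piwi-KD had 14 transposons higher and 0 lower, and the other counts were 11 and 0 in Mael-KD, 13 and 1 in H1-KD and 22 and 4 in HP1a-KD, without BLOOD. The median transposon was at -0.32, -0.23, -0.08 and 0.21 in these knockdowns, so relative to it BLOOD stood at 0.49, 0.46, 0.42 and 0.18. BLOOD ranked 16 from the highest of 96 in Piwi-KD, Mael-KD and H1-KD and 39 in HP1a-KD. By value, the order of the knockdowns thus turned round once the median transposon was subtracted. No interval was computed for the centred values, and BLOOD held the same rank in Piwi-KD, Mael-KD and H1-KD.

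Among the 7 other mdg1-group entries, 3 were at least 1.5-fold more accessible in Piwi-KD, 2 in Mael-KD, 3 in H1-KD and 6 in HP1a-KD, and relative to the median transposon 5, 3, 3 and 5. MDG1 passed in all 4, from 197.6 RPKM in the control to 384.1 or more. STALKER4 passed in HP1a-KD, at 823.2 against 298.7, and was below control in Piwi-KD at 247.6; relative to the median transposon it was slightly above 0 there. BLOOD was exceeded by 5 of the 7 in Piwi-KD, Mael-KD and H1-KD and by 6 in HP1a-KD.

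H1 ChIP over input asks whether the linker histone leaves blood when Piwi, Mael or HP1a is depleted. BLOOD was at 0.911 in Piwi-KD against 0.987 in its control, 0.912 in Mael-KD against 0.956, and 0.889 in HP1a-KD against 1.01. Each knockdown was below its own control and below the lowest control of the 3. The log2 changes were -0.11, -0.07 and -0.18, and the counting interval of the ratio held 1 in Mael-KD (0.894 to 1.02). At least 1.5-fold lower H1 was found for 3.12%, 2.08% and 4.17% of transposons, without BLOOD.

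A limma model of each knockdown against the 3 controls, fitted to 96 transposons, did not call BLOOD. Sample number was not in the model, so shifts between sample numbers enter both the differences and their error. The median transposon of the controls was at 1.30, 1.15 and 1.18 in samples 1, 2 and 3. The differences from the control mean were -0.10 (interval -0.49 to 0.28, Benjamini-Hochberg adjusted p = 0.845) in Piwi-KD, -0.11 (-0.49 to 0.27, 0.918) in Mael-KD and -0.15 (-0.53 to 0.24, 0.845) in HP1a-KD. The model assumes that each lone knockdown varies like the controls and called 5.21%, 1.04% and 4.17% of transposons. Its standard error of 0.19 is that of a difference between 1 library and the mean of 3, with spread borrowed from all 96 transposons. It is not the same measure as the SD of BLOOD among controls. That SD was 0.038 on the log2 scale, against a median of 0.11 over the 96 transposons. The missing call thus rests almost wholly on spread pooled over the 96 transposons and says little about the spread of BLOOD itself. Relative to the median transposon BLOOD was at -0.13, -0.02 and -0.06 in the comparisons with its own control. With each library centred on its median transposon, the limma difference was -0.26 in Piwi-KD, 0.00055 in Mael-KD and 0.041 in HP1a-KD. Without input it was -0.18, -0.065 and -0.0082 in the same order.

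In Piwi-KD, 4 relatives (MDG1, DM412, DM412B and STALKER2) had less H1 over input than BLOOD, which ranked 83 of 96 transposons from the highest. For MDG1, H1 over input was 0.739 in Piwi-KD against 1.28 in the control, a log2 change of -0.76. STALKER2, whose H1 level in the controls was low like that of BLOOD (0.880, 0.922 and 0.883), had 0.607 in Piwi-KD (-0.45). In HP1a-KD all 7 other entries were below control, at -0.27 to -1.15, and each was further down than BLOOD at -0.18. The median transposon was also below control in HP1a-KD, at -0.11, and BLOOD ranked 35 from the lowest of 96. DM412B, at -1.15 there and -1.25 in Mael-KD, rests on 28 and 18 knockdown reads.

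H3K9me3 over input at BLOOD was 2.84 in the control, 1.44 in Piwi-KD and 1.201 in H1-KD. The H1-KD value is one of those that picked BLOOD, and Piwi-KD is set against the same control ChIP and input. Neither fall is therefore free of the choice of BLOOD. Piwi-KD was at 0.508 of the control (interval 0.485 to 0.532), a log2 change of -0.95 that ranked 10 from the lowest, and 13.5% of transposons were at least 1.5-fold lower. Relative to a median transposon of 0.32 the change was -1.27, and after centring 14 transposons were lower and 1 higher, in place of 13 and 13. The ranking of BLOOD by H3K9me3 over input went from 47 of 96 in the control to 84 in Piwi-KD and 89 in H1-KD, counted from the highest.

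The value for H1-KD, 0.423 of the control (0.403 to 0.444, log2 change -1.21), is one of those that picked the element. It was the lowest of 96, with STALKER2 next at -0.96 and MDG1 after it at -0.71, and 6.25% of transposons were at least 1.5-fold lower. The 2 knockdowns share the control ChIP and input. Set directly against each other, H1-KD minus Piwi-KD was -0.25 (interval -0.34 to -0.19) for BLOOD, and the median transposon had -0.22.

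HP1a, which binds methylated H3K9, was also lower at BLOOD. The ratio to input was 1.72 in the control, 1.13 in Piwi-KD and 1.07 in H1-KD. Piwi-KD was at 0.658 of the control (0.627 to 0.69), a log2 change of -0.59 and rank 6 from the lowest, and 6.25% of transposons were at least 1.5-fold lower. In H1-KD the ratio to control was 0.619 (0.59 to 0.65, -0.68), the other value that picked the element. Piwi-KD is set against the same control, so its lower HP1a is not free of that choice. STALKER2 followed at -0.62 and Gypsy1 at -0.39, and 2.08% of transposons were as much as 1.5-fold lower. H1-KD minus Piwi-KD was -0.08 (-0.16 to -0.01), against 0.10 for the median transposon.

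**Figure D3:**
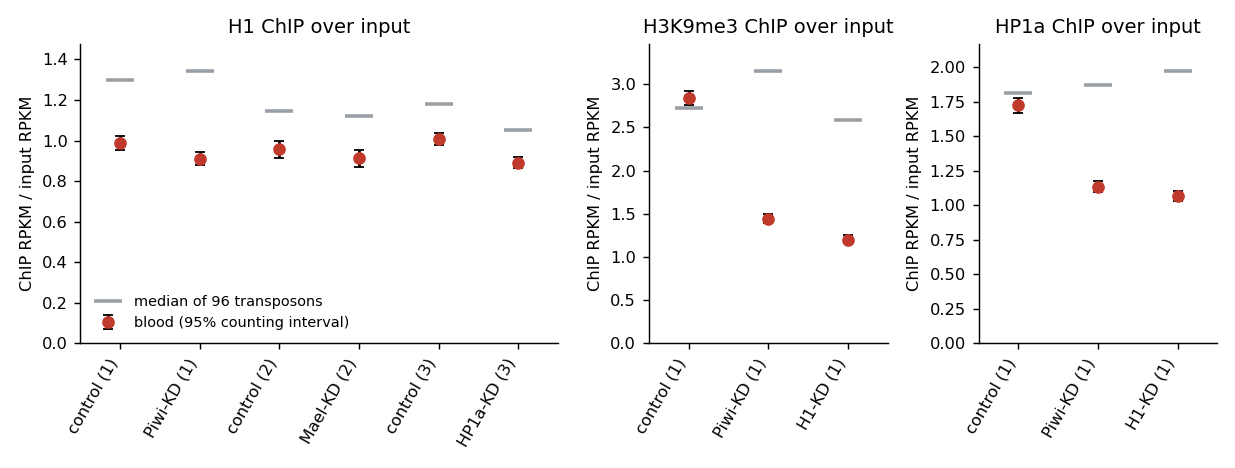
Ratio of ChIP to input (RPKM over RPKM) for BLOOD (red, with 95% counting intervals) and for the median of 96 transposons (grey lines), by knockdown and sample number. H3K9me3 and HP1a at BLOOD are near the median transposon in the control (2.84 and 1.72) and well below it in Piwi-KD and H1-KD, while H1 stays between 0.889 and 1.01.

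Across the mdg1 group the same marks differed by element. In Piwi-KD, 4 of the 7 other entries had at least 1.5-fold lower H3K9me3, beside 13.5% of all kept transposons. The median of the 7 was -1.07, against 0.32 over all kept transposons. MDG1 led at 1.31 against 4.197 over input, and STALKER4 was at 3.42 against 3.13. In H1-KD, STALKER2 and MDG1 were past 1.5-fold (median of the 7 -0.39), beside 6.25% of all kept transposons. All 7 lay above BLOOD, as the choice of BLOOD implies. For HP1a, 2 of the 7 were at least 1.5-fold lower in Piwi-KD (MDG1 and STALKER2) and 1 in H1-KD (STALKER2). The shares over all kept transposons were 6.25% and 2.08%. STALKER3 was at least 1.5-fold higher in H3K9me3 under Piwi-KD, from 83 and 121 ChIP reads, but not relative to the median transposon.

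At BLOOD a lower H3K9me3 went with a modest change of its poly(A)+ RNA. In Piwi-KD, 13 of the 80 transposons kept in both tables had at least 1.5-fold lower H3K9me3, and 10 of these had at least 2-fold more RNA, beside 23 of all 80. The other 3 were COPIA, BLOOD and Gypsy1, with RNA changes of 0.69, 0.61 and -0.20. They are also the 3 transposons with the most control RNA, an overlap picked out after the values were seen, and its cause was not tested. In H1-KD, 6 of the 80 had lower H3K9me3 and 3 of these had at least 2-fold more RNA (MDG1, BARI and STALKER2), beside 48 of all 80 (60%). The H3K9me3 values of this knockdown picked BLOOD, so nothing is read from that count. BLOOD, DOC6 and Gypsy1 were at 0.43, 0.17 and 0.08.

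**Figure D4:**
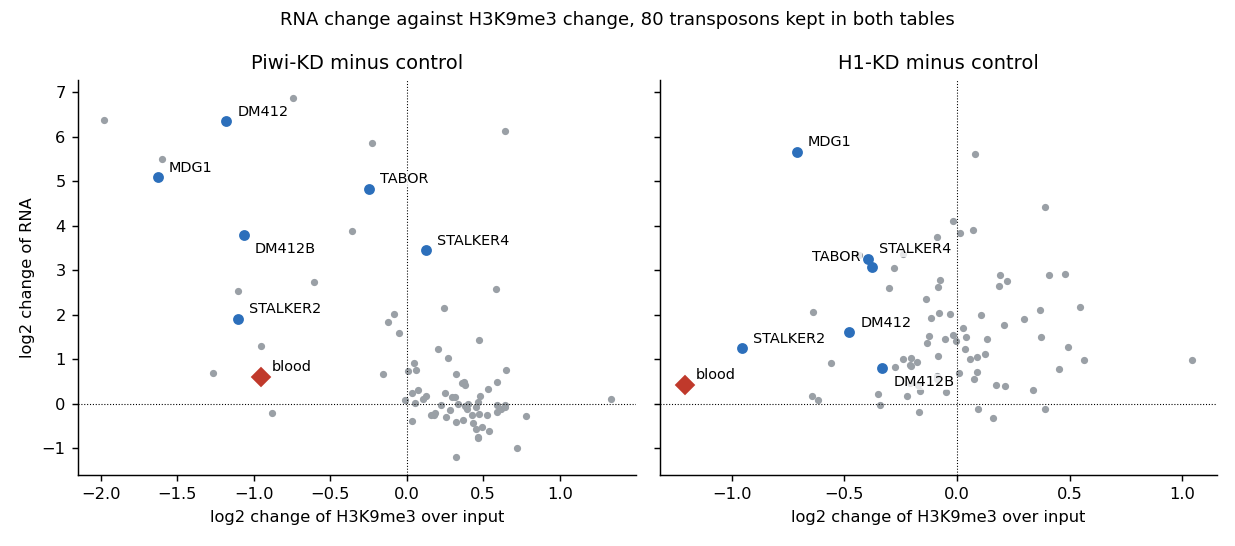
Log2 change of RNA (vertical) against log2 change of H3K9me3 over input (horizontal) for 80 transposons kept in both tables, in Piwi-KD and H1-KD; the diamond is BLOOD and labelled circles are other mdg1-group entries. BLOOD lies at -0.95 and 0.61 in Piwi-KD and at -1.21 and 0.43 in H1-KD, below the 6 labelled relatives on the RNA axis.

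The element most like BLOOD over all 14 comparisons was Gypsy1, another LTR element. Likeness was the root mean square difference of the log2 changes, each in units of its SD over the 68 transposons kept in all tables. It includes H3K9me3 and HP1a in H1-KD, the values that picked BLOOD. It was 0.656 for Gypsy1, 0.712 for STALKER2, 1.09 for the non-LTR element DOC6, 1.26 for the I element and 1.33 for the LTR element HMSBEAGLE, with a median of 1.72 over 67 transposons. Gypsy1 stood next above BLOOD in control RNA and had H3K9me3 changes of -0.88 in Piwi-KD and -0.62 in H1-KD and a small RNA change of -0.63. Over the 12 comparisons without the 2 picking values, an order added after the data were seen, Gypsy1 remained at rank 1 (0.315), and I (0.516), DOC6 (0.677), STALKER2 (0.734) and BLASTOPIA (0.739) came next, with a median of 1.18. STALKER2 thus went from rank 2 to 4 and HMSBEAGLE from 5 to 11. STALKER2 had RNA changes of 1.91 in Piwi-KD and 1.25 in H1-KD, both above those of BLOOD.

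**Figure D5:**
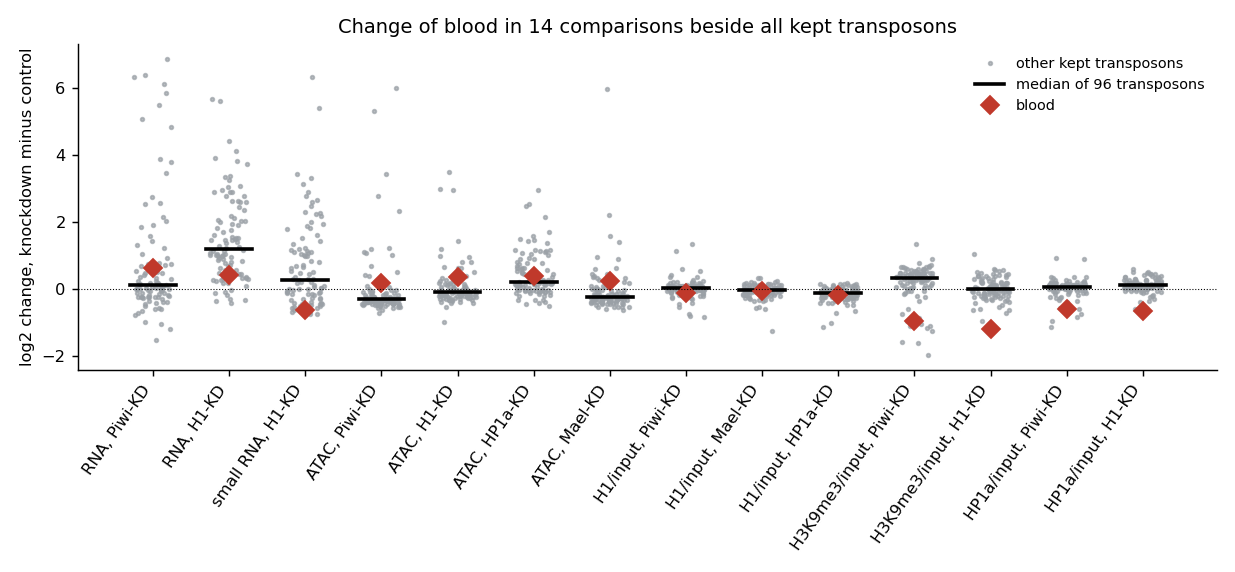
Log2 change between knockdown and control in 14 comparisons for BLOOD (red diamonds), the other kept transposons (grey points) and the median of 96 transposons (black lines). BLOOD lies at the lower edge for H3K9me3 and HP1a in H1-KD (-1.21 and -0.68), low for small RNA (-0.62), near the median for H1, and above the median for ATAC and for RNA in Piwi-KD but below it for RNA in H1-KD.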

How the data were processed

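Titles of the 34 samples gave assay and knockdown, and these set the groups. The authors deposited 1 value per transposon consensus and column: RPKM values for RNA, ATAC, ChIP and input, and RPM values for small RNA. The labels name neither unit. Both were deduced, because all 3606 nonzero values gave whole reads (tolerance 0.05) under a shared consensus length per transposon and a read total per column. A length was obtained for 128 of 129 transposons, and the method was tested on simulated data (29 of 29 totals came back). A factor common to reads and totals would not be seen. Per the submitters' processing notes, cutadapt and build dm3 are listed for all assays. The same notes list TopHat2 2.0.7, Bowtie2 2.0.6 and Cufflinks 2.1.1 for RNA, MACS2 for ATAC, and Bowtie 1.0.1 for the ChIP, input and small RNA libraries. The treatment of reads that match more than 1 family is not stated, which leaves levels of related families uncertain. The same holds for whether ATAC reads were shifted and whether the 1 ATAC column per condition pools the replicates 1 and 2 of the labels. Per the labels' protocols, ChIP used 3 µg of antibody.

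Each ChIP value was divided by its own input (same knockdown, same number). Changes were log2((knockdown + p)/(control + p)), with p at 0.1 of the median nonzero value of a table (RNA 0.553 RPKM, ATAC 5.80 RPKM, small RNA 8.10 RPM, and 4.45 to 13.2 RPKM in the ChIP and input tables), which understates changes of low transposons. The 33 transposons with the lowest mean over a table's columns were left out, so an element low in the control is kept where a knockdown value is high. Marks were 2-fold for RNA and small RNA and 1.5-fold for ChIP and ATAC. Intervals at 95% are on ratios without pseudocount: exact for reads of 1 or 2 libraries, and from a normal approximation of the log ratio where input is divided out. The labels mention no molecular identifiers, and without them PCR copies of 1 molecule count as separate reads, so the intervals hold for counting error alone. limma 3.58.1 in R 4.3.3 was fitted to the log2 ratio of H1 to input, for 96 transposons and 6 libraries (3 of them controls), and each lone library is assumed to vary like the controls. The design foresaw limma over ATAC replicates; with 1 column per condition, values with intervals were used instead. Named transposons were BLOOD, the mdg1 group, the neighbours of BLOOD in the values that picked it and the 5 most like it; others were named after their values were seen. The members and lists were chosen with earlier results of these data known. Alternatives were no pseudocount, centring on the median transposon, no input or added input, other controls and no filter.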

Additional observations from a re-analysis of the deposited data

How the results depend on the processing

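Centring on the median transposon moved the most values of BLOOD. It turned the sign of RNA in H1-KD (-0.77), while RNA in Piwi-KD became 0.50 and small RNA -0.89. The centred ATAC changes were 0.49 for Piwi-KD, 0.46 for Mael-KD, 0.42 for H1-KD and 0.18 for HP1a-KD. In HP1a-KD, H1 over input became -0.065 and input -0.0011. H3K9me3 in Piwi-KD became -1.27, and HP1a in H1-KD -0.80. For H1 by limma, centring changed the sign to 0.00055 for Mael-KD and 0.041 for HP1a-KD, but moved Piwi-KD further down to -0.26. ATAC over input gave 0.33 for HP1a-KD and 0.30 for H1-KD, and H1 without input gave -0.12 for HP1a-KD against its own control. Without input, the limma difference was -0.18 for Piwi-KD, -0.065 for Mael-KD and -0.0082 for HP1a-KD. The cause was not tested. Each change of BLOOD against its own control, taken with the pseudocount, lay within the counting interval, which is built around the ratio without it. Leaving out each control in turn gave limma differences of -0.12 to -0.087 for Piwi-KD, -0.13 to -0.094 for Mael-KD and -0.17 to -0.13 for HP1a-KD. Adjusted p for BLOOD ranged from 0.258 to 0.999 over the alternatives.

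The number of transposons that limma called depended on the setting. For Piwi-KD it was 5, and 10, 3 and 1 without control replicate 1, 2 or 3. For HP1a-KD it was 4, and 2, 3 and 2, and for Mael-KD it was 1 each time. When input was not divided out, the limma count was 0 for all 3 knockdowns; an unadjusted p under 0.05 was reached by 6 in Piwi-KD, 1 in Mael-KD and 1 in HP1a-KD. After centring it called 6 in Piwi-KD and 0 in Mael-KD and HP1a-KD (8 and 19 at an unadjusted p under 0.05). With no filter it called 3, 3 and 5 in Piwi-KD, Mael-KD and HP1a-KD. With no filter on low values, the transposons 1.5-fold lower went from 1 to 2 for ATAC in H1-KD, from 0 to 1 for ATAC in HP1a-KD and from 2 to 4 for H1 in Mael-KD, and 1 was higher for H1 in HP1a-KD against 0. No paired analysis was possible because the groups compared, 1 knockdown and the control, share 1 sample number at most, and the ATAC columns carry none. BLOOD had at least 3099 reads in every column.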
